A study of Mus musculus with 8 samples.

Results

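The Clcn5 intronic cluster is a group of miRNA genes that lie inside Clcn5 on the mouse X chromosome, and its mature products were followed here in mouse gastrocnemius muscle after local damage and spinal cord injury. Members were taken by name, as every assay of the panels for miR-188, miR-362, miR-500, miR-501, miR-532 or miR-660, whatever the species prefix, letter or arm. This gave 11 assays of 9 mature miRNAs out of 752 miRNA assays of 688 miRNAs, and miR-660 had none. The cluster itself was chosen by its higher values in CDTX than in PBS muscle of these same pools, so those values are given as a description and were not tested.

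The study used young adult female C57Bl/6 mice that received a transection of the thoracic spinal cord (SCI) or SHAM surgery, followed by cardiotoxin (CDTX), a snake venom toxin that destroys muscle fibers, in the left gastrocnemius and phosphate-buffered saline (PBS) in the right. The 4 resulting conditions were CDTX + SCI, CDTX + SHAM, PBS + SCI and PBS + SHAM, each at day 2 (D2) and day 4 (D4), and CDTX with SCI is the combination that leads to ectopic bone in this model. Each of the 8 pools held the total RNA of 3 muscles, with 1 pool per condition, so no condition had a replicate and a comparison of 2 pools could not be tested. Both surgeries shared the 2 injections, and the labels do not say whether a CDTX pool and a PBS pool came from the same mice.

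Expression was read by RT-qPCR as the Cp, the amplification cycle at which an assay's signal appears, so that a Cp lower by 1 stands for a doubling of the template. A Cp of 36 was the end of the recorded range, and an assay was taken as measured in a pool at a Cp of at most 32. Relative expression was the mean Cp of 3 reference miRNAs minus the Cp of the assay, on the log2 scale, and a log2 ratio was the difference of that value between 2 pools. From 152 to 178 of the 752 miRNA assays were measured in a pool, and the mean Cp of the references ranged from 24.7 to 25.6. The labelled tissue was checked by its defining miRNAs, and miR-133a-3p, miR-133b and miR-1-3p of striated muscle were measured in every pool.

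A miRNA is cut from a hairpin in its primary transcript by Drosha and then by Dicer, and either arm of the hairpin (5p or 3p) can be loaded into an Argonaute protein. The seed, bases 2 to 8 of the mature strand, does most of the pairing with target mRNAs. Hairpins within an intron of a protein-coding gene can share that gene's transcript or use a promoter of their own, and a cluster's mature products can still differ in amount because each hairpin is processed separately. Clcn5 encodes a chloride/proton exchanger of endosomes. In mice, miR-501 is known from activated muscle progenitor cells and miR-188 from the choice of bone marrow stromal cells between bone and fat.

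The assay targets are shown because members of the cluster resemble each other, and an assay can then read a relative. They are written 5′ to 3′ with the seed in capitals, in the order of the hairpins along the transcript, and come from the target list of the panels.
hsa-miR-532-5p: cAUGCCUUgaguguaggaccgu
rno-miR-532-5p: cAUGCCUUgaguguaggacugu
hsa-miR-532-3p: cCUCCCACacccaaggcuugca
hsa-miR-188-5p: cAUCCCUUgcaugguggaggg
hsa-miR-188-3p: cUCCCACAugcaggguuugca
mmu-miR-362-5p: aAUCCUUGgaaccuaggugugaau
mmu-miR-362-3p: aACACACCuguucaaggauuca
mmu-miR-501-5p: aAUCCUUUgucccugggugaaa
rno-miR-501-5p: aAUCCUUUgucccuggguga
mmu-miR-501-3p: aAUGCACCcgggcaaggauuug
mmu-miR-500-3p: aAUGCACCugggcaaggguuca

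The assay names keep the species prefix of the deposited table, where the hsa assays are those that the target list gives under mouse names, and the rno assays are second assays with the rat sequence as target. The 9 miRNAs carried 8 different seeds. Only miR-500-3p and miR-501-3p shared a seed, and their targets differed by 4 substitutions, written with the base of miR-500-3p first and positions counted from 1 at the 5′ end, namely U9C, G18A, C21U and A22G. The mouse and rat targets of miR-532-5p differed by C20U alone, and the rat target of miR-501-5p was 2 bases shorter than the mouse target at its 3′ end. The seed of miR-188-3p was found in miR-532-3p at bases 3 to 9, and the seeds of miR-362-5p and miR-501-5p differed by G8U alone. Of the other targets in the list of 750, miR-329-3p had the seed of miR-362-3p and the rat miR-511-5p that of miR-532-5p, and neither reached a Cp of 32 in any pool.

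In the RefSeq annotation of GRCm38.p6, 5 hairpins of the cluster lie on the minus strand within the bounds of Clcn5, which is transcribed from the same strand. Their order along the transcript is Mir532, Mir188, Mir362, Mir501 and Mir500, over 10.7 kb from the start of the first to the start of the last. Mir532 and Mir188 start 0.441 kb apart, and 5.94 kb then separate Mir188 from Mir362. The hairpins of that first pair are shown with the arms in capitals, because their 3p arms resemble each other while their Cp values stood far apart. Mir532 occupies chrX:7248402-7248497 and Mir188 chrX:7247989-7248056.
Mir532: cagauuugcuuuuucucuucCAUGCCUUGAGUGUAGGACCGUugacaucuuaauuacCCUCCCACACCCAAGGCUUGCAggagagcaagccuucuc
Mir188: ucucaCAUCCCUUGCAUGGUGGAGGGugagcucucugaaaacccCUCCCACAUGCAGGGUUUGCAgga
Of the 9 mouse targets, 8 equalled a mature entry of RefSeq and the target of miR-532-5p was found within the Mir532 hairpin. The rat targets matched no mouse entry.

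All 11 assays had their highest relative expression in the CDTX D4 pools. The 2 CDTX D4 pools lay above the other 6 pools in each of the 11, of which 9 were measured in both CDTX D4 pools, while among all 168 miRNA assays measured in both CDTX D4 pools the same held for 59, or 35.1%. Of the cluster, 4 assays were measured in all 8 pools, 5 more in at least 1 pool and 2 (miR-188-3p and miR-500-3p) in none. An assay that passed only through the CDTX D4 pools, as miR-188-5p and miR-362-5p did among the 9, had to be higher there. Among the 123 assays measured in all 8 pools, the CDTX D4 pools lay above the other 6 in 33, or 26.8%. In the cluster this was 4 of 4. For the same reason, the counts below are kept to ratios with both pools measured.

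**Figure D1:**
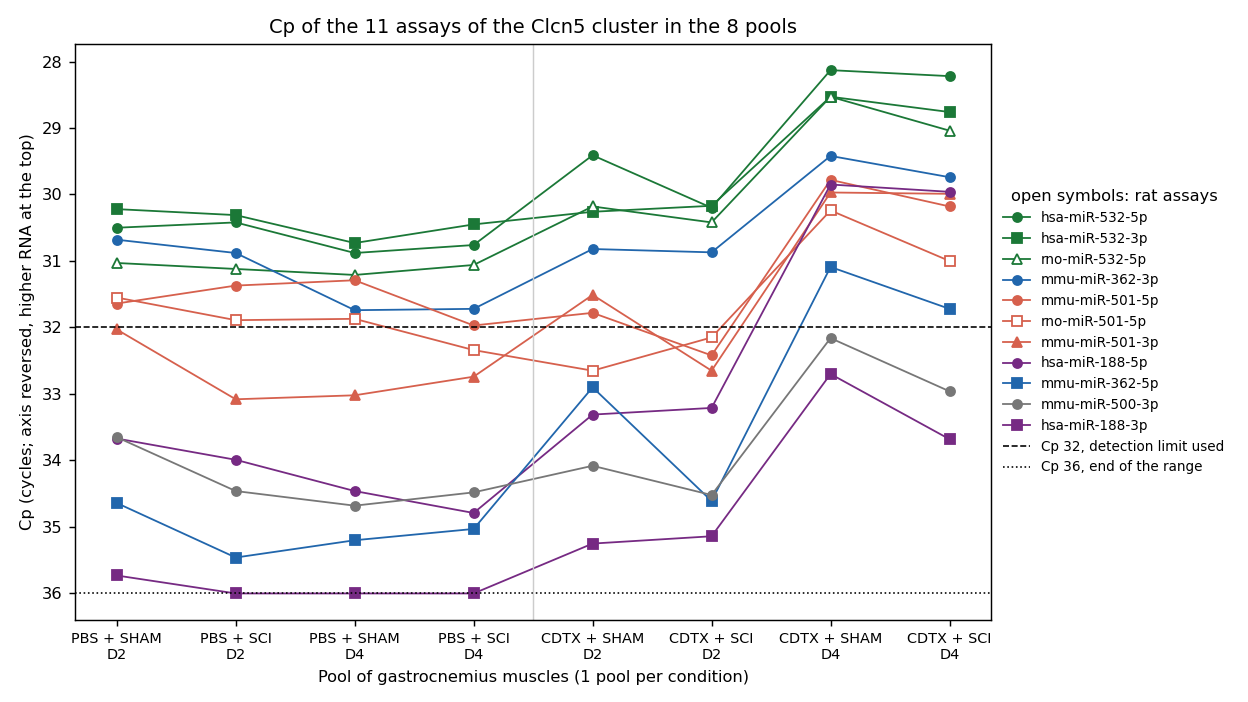
Cp (cycles, reversed axis, 1 value per pool) of the 11 cluster assays in the 4 PBS and the 4 CDTX pools, with open symbols for the rat assays and lines that only join the values of 1 assay. Every assay had its lowest Cp in a CDTX D4 pool, from 28.13 for hsa-miR-532-5p to 32.70 for hsa-miR-188-3p.

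miR-532-5p, the 5p arm of the first hairpin, had the lowest Cp of the cluster in both CDTX D4 pools. With hsa-miR-532-5p, the Cp was 30.50 in PBS + SHAM D2, 30.42 in PBS + SCI D2, 30.88 in PBS + SHAM D4 and 30.76 in PBS + SCI D4. In the CDTX pools it was 29.41 in CDTX + SHAM D2, 30.20 in CDTX + SCI D2, 28.13 in CDTX + SHAM D4 and 28.22 in CDTX + SCI D4. The PBS pools thus stayed within 0.46 cycles, and every CDTX pool came earlier than every PBS pool. The log2 ratio of CDTX over PBS was 3.01 in SHAM D4 (8.06-fold) and 2.58 in SCI D4 (5.99-fold), against 1.95 in SHAM D2 and 0.87 in SCI D2.

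The rat assay of miR-532-5p ran on the other panel and served as a second reading of the same miRNA. Its Cp was 31.03, 31.12, 31.21 and 31.06 in the PBS pools in the order given above, and 30.18, 30.42, 28.53 and 29.04 in the CDTX pools. It came later than hsa-miR-532-5p by 0.51 ± 0.23 cycles (SD over 8 pools) and ordered PBS, CDTX D2 and CDTX D4 the same way. Its log2 ratios of CDTX over PBS were 1.71 in SHAM D2, 1.35 in SCI D2, 2.94 in SHAM D4 and 2.06 in SCI D4.

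miR-532-3p, from the opposite arm, was the second most readily detected member. The Cp of hsa-miR-532-3p was 30.22, 30.31, 30.73 and 30.45 in the PBS pools and 30.26, 30.17, 28.53 and 28.76 in the CDTX pools. Before normalization, the D2 pools of both injections overlapped and only the CDTX D4 pools came earlier. The log2 ratio was 0.82 in SHAM D2, 0.79 in SCI D2, 2.46 in SHAM D4 (5.50-fold) and 1.73 in SCI D4 (3.32-fold).

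miR-362-3p followed the same course one step later in Cp. The Cp of mmu-miR-362-3p was 30.68, 30.88, 31.74 and 31.72 in the PBS pools and 30.82, 30.87, 29.42 and 29.74 in the CDTX pools. The PBS D4 pools lay about a cycle above the PBS D2 pools, while the CDTX D4 pools lay below all others. The log2 ratio was 0.72 in SHAM D2, 0.66 in SCI D2, 2.58 in SHAM D4 (5.98-fold) and 2.02 in SCI D4 (4.07-fold).

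miR-501-5p was read by a mouse and a rat assay near the detection limit. The Cp of mmu-miR-501-5p was 31.64, 31.37, 31.29 and 31.97 in the PBS pools and 31.78, 32.42, 29.78 and 30.18 in the CDTX pools, and that of rno-miR-501-5p was 31.55, 31.89, 31.87 and 32.34 and then 32.65, 32.15, 30.24 and 31.00. Both assays separated the CDTX D4 pools from the rest, and neither separated CDTX D2 from PBS. The log2 ratio in SHAM D4 was 1.77 with the mouse assay (3.41-fold) and 1.89 with the rat assay (3.71-fold). In SCI D4 it was 1.83 with the mouse assay (3.56-fold), and with the rat assay, whose PBS + SCI pool was beyond 32, CDTX was at least 2.06-fold higher. In SHAM D2 the mouse assay gave 0.72, whereas the rat assay had its CDTX pool beyond 32 and gave no ratio. As recorded, without the limit, the rat assay was at -0.24 there. In SCI D2, with the CDTX pool beyond 32 in both assays, the mouse assay was at -0.40 and the rat assay at 0.39 as recorded.

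The remaining members were late, and for them a PBS pool beyond 32 was set at 32, which turns the fold into a lower bound. miR-188-5p, the 5p arm of the second hairpin, had a Cp of 33.67, 33.99, 34.46 and 34.79 in the PBS pools and of 33.31, 33.21, 29.85 and 29.96 in the CDTX pools. It passed from beyond the limit in all 6 other pools to a Cp under 30 in both CDTX D4 pools, and was at least 5.31-fold higher with CDTX in SHAM D4 and at least 4.24-fold higher in SCI D4. As recorded, without the limit, its log2 ratios of 4.87 in both comparisons were the highest of the cluster, but the PBS Cp behind them is beyond the limit.

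miR-501-3p had a Cp of 32.03, 33.08, 33.02 and 32.74 in the PBS pools and of 31.51, 32.65, 29.97 and 29.99 in the CDTX pools. It was at least 4.89-fold higher with CDTX in SHAM D4, at least 4.15-fold higher in SCI D4 and at least 2.55-fold higher in SHAM D2, where its PBS pool was only just outside the limit. For miR-362-5p the Cp was 34.64, 35.46, 35.20 and 35.03 in the PBS pools and 32.90, 34.61, 31.09 and 31.72 in the CDTX pools. It was at least 2.25-fold higher with CDTX in SHAM D4 and at least 1.25-fold higher in SCI D4.

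No fold is given for the last pair of assays, which stayed beyond the limit. The Cp of miR-500-3p ranged from 33.65 to 34.68 over the PBS pools and was 34.08, 34.52, 32.16 and 32.96 in the CDTX pools. The Cp of miR-188-3p was 35.73 in PBS + SHAM D2 and 36 in the other PBS pools, and 35.25, 35.14, 32.70 and 33.68 in the CDTX pools. Both were earliest in the CDTX D4 pools, like the measured members. At the limit itself, mmu-miR-501-5p was just inside in PBS + SCI D4 at 31.97 and miR-501-3p just outside in PBS + SHAM D2 at 32.03.

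**Figure D2:**
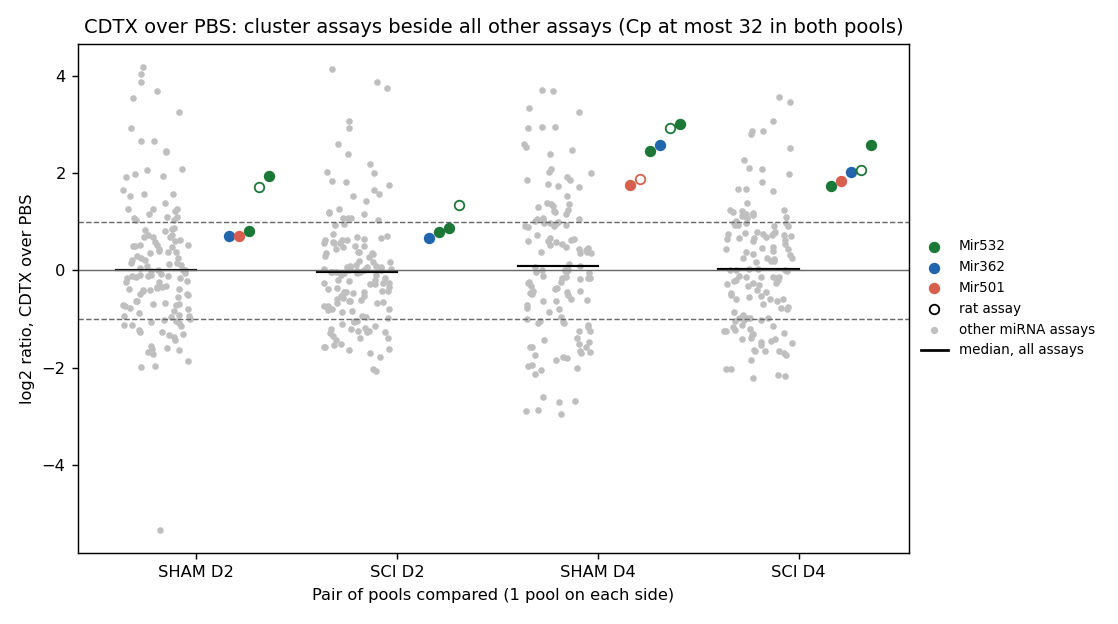
Log2 ratio of CDTX over PBS in the 4 pairs of pools, for cluster assays (colored by hairpin, open for rat assays) and all other miRNA assays (grey) measured in both pools, black bars marking the median of all assays and dashed lines a 2-fold difference. The cluster assays measured in both pools lie between 0.66 and 1.95 at D2 and between 1.73 and 3.01 at D4. Left out at D2, among others, are both assays of miR-501-5p in SCI and its rat assay in SHAM, whose CDTX pools were beyond 32.

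Against all miRNA assays measured in both pools, the cluster stood in the upper part at both days, which is where the values that singled it out had put it. In SHAM D4, all 6 cluster assays with both pools measured were at least 2-fold higher with CDTX, as were 30.1% of 136 assays, and their median log2 ratio was 2.52 against 0.09 over all assays. In SCI D4 this held for 5 of 5, with 22.5% of 142 assays, and the medians were 2.02 and 0.02. In SHAM D2 it held for 2 of 5, both assays of miR-532-5p, with 23.4% of 141 assays and medians of 0.82 and 0.01. In SCI D2 it held for 1 of 4, the rat assay of miR-532-5p, with 18.2% of 143 assays and medians of 0.83 and -0.03.

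The choice of reference shifted all assays of a comparison together and left the cluster's distance from the median of all assays as it was, at 0.81 in SHAM D2, 0.86 in SCI D2, 2.44 in SHAM D4 and 2.00 in SCI D4. With the 3 references, 33 assays were at least 2-fold higher and 24 lower in SHAM D2, and this became 45 and 13 with miR-23b-3p alone and 23 and 38 with the deposited normalization. In SCI D2 the split of 26 and 27 became 40 and 11 or 18 and 39 (miR-24-3p alone), in SHAM D4 that of 41 and 33 became 49 and 27 (miR-125b-5p alone) or 28 and 39 (miR-24-3p alone), and in SCI D4 that of 32 and 32 became 45 and 22 or 20 and 43 with those same references. The cluster assays at least 2-fold higher at D4 numbered 6 and 5 under every one of the 5 other normalizations, whereas at D2 they became 5 of 5 and 4 of 4 with miR-23b-3p alone.

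The spread of the measurement was taken from the 14 miRNAs with 2 assays on the panels. Over 103 pairs of log2 ratios of 1 miRNA in 1 comparison, the root mean square difference was 0.34 and the largest 1.07, and for the 2 cluster miRNAs with 2 assays (16 pairs) it was 0.41 and 0.67. This is the error of the assay alone and leaves out how mice vary. The log2 ratios of 1.73 to 3.01 at D4 were larger than every one of these differences between assays, and those of 0.66 to 0.87 at D2 were below the largest.

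The order of the 8 pools was read from the mean relative expression of the 4 assays measured in all of them (both of miR-532-5p, miR-532-3p and miR-362-3p). It was highest in CDTX + SHAM D4 at -3.04 on the log2 scale, followed by CDTX + SCI D4 at -3.72, CDTX + SHAM D2 at -4.62, CDTX + SCI D2 at -4.90 and then the PBS pools from -5.79 to -5.92. With 1 pool per condition there was no spread between pools by which to tell neighbors in this order apart, and the steps from PBS to CDTX belong to the values by which the cluster was chosen. Across the 8 pools, whose values share the 3 references, Pearson's r between any pair of these 4 assays ranged from 0.95 to 0.98.

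Each arm and hairpin is a separate product of the locus, and the arms did not keep a constant distance. The Cp of miR-532-3p minus that of hsa-miR-532-5p was -0.31 to -0.11 in the PBS pools, -0.03 and 0.85 in the CDTX D2 pools, and 0.40 and 0.54 in the CDTX D4 pools. With the rat assay of the 5p arm, which ran on the same panel as miR-532-3p, it was -0.81 to -0.48, -0.25 and 0.08, and -0.28 and 0.00. The difference was higher in every CDTX pool than in every PBS pool with both assays of the 5p arm, though the smallest gaps between CDTX and PBS were within the assay error. For Mir362 the difference of 3p minus 5p was -4.58 to -3.31 in the PBS pools, -3.74 and -2.08 in the CDTX D2 pools and -1.98 and -1.67 in the CDTX D4 pools, with the 5p arm beyond 32 in every PBS and CDTX D2 pool. For Mir501 with the mouse assay of the 5p arm it was 0.39 to 1.73, -0.27 and 0.23, and -0.19 and 0.19. The 3p arm was within 32 in 3 of the 8 pools. With this 5p assay the difference was lower in every CDTX pool than in every PBS pool. With the rat assay of the 5p arm that separation did not hold. The Cp of the rat 5p and the 3p assay was 32.15 and 32.65 in CDTX + SCI D2, and 31.55 and 32.03 in PBS + SHAM D2. For Mir188, with the 3p arm beyond 32 in every pool, it was 1.21 to 2.06, 1.93 and 1.94, and 2.85 and 3.72. Its 3p arm was at 36, the end of the range, in every PBS pool except PBS + SHAM D2. The PBS differences there are lower bounds, so the step from PBS to CDTX cannot be read for Mir188. Cp differences between assays also hold their amplification efficiencies. Only the change of such a difference between pools with both arms within 32 is therefore a measurement of the arms.

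**Figure D3:**
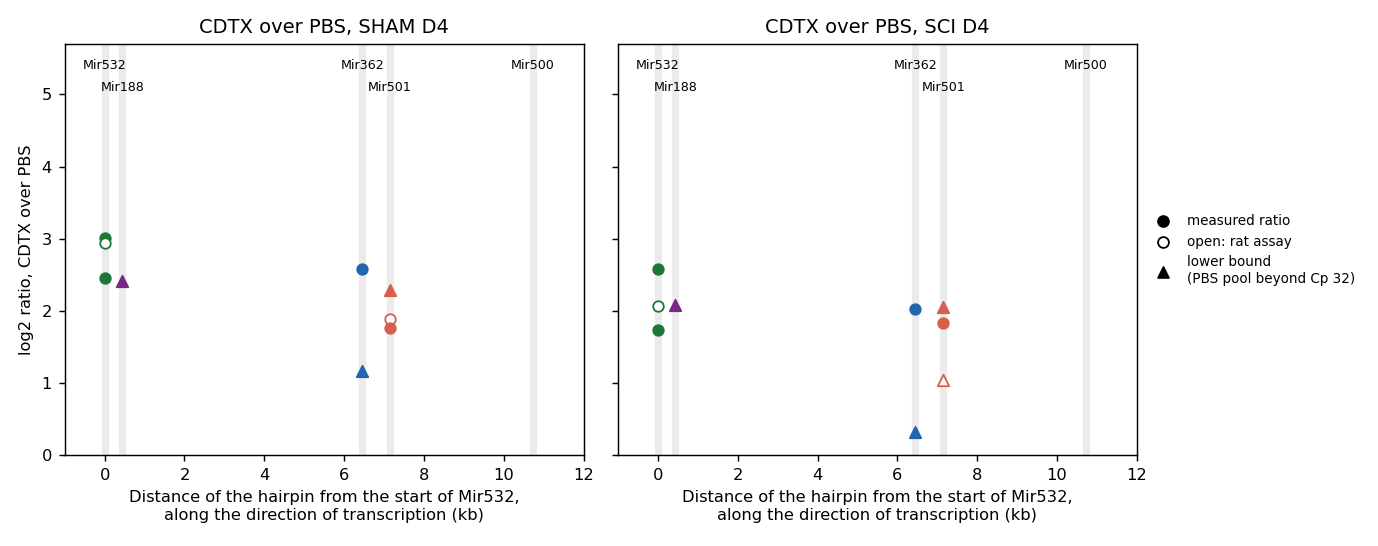
Log2 ratio of CDTX over PBS at D4 in SHAM (left) and SCI (right) against the distance of each hairpin from the start of Mir532 along the direction of transcription (kb); circles are measured ratios, triangles lower bounds where the PBS pool was beyond a Cp of 32, open symbols rat assays. Hairpins at both ends of the measured stretch, Mir532 and Mir501, lie above 1 in both panels, and Mir500 has no ratio.

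Along the locus, higher values with CDTX at D4 were read from Mir532, Mir188, Mir362 and Mir501. In SHAM D4 the measured log2 ratios were 2.46 to 3.01 for Mir532, 2.58 for the 3p arm of Mir362 and 1.77 to 1.89 for the 5p arm of Mir501. In SCI D4 they were 1.73 to 2.58, 2.02 and 1.83, so that the ranges of the 3 hairpins overlapped there. Mir188 and the 3p arm of Mir501 gave bounds of at least 2.41 and 2.29 in SHAM D4 and of at least 2.08 and 2.05 in SCI D4. In SHAM D4 the 5p arm of Mir501 lay below the measured values of Mir532 and Mir362. Each gap was larger than the root mean square difference between assays, 0.34 over all and 0.41 in the cluster. The smallest gap was below the largest such difference, 0.67 in the cluster and 1.07 over all. The 3p arm of Mir501, with a bound of 2.29, was not set apart in this way.

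The comparison of D4 with D2 asked when the cluster was higher, and it used the same CDTX D4 pools as the ratios above. In CDTX + SHAM, all 6 measured cluster assays were at least 2-fold higher at D4 than at D2, as were 19.3% of 145 assays, with log2 ratios from 1.35 (hsa-miR-532-5p) to 2.07 (mmu-miR-501-5p) and medians of 1.67 for the cluster and 0.21 for all. The 6 included miR-501-3p at 1.61, and miR-188-5p, beyond 32 at D2, was at least 4.66-fold higher. In CDTX + SCI it was 3 of 4, with 6.25% of 144 assays, and miR-362-3p at 0.83 was the exception. The count fell to 1 of 4 with miR-24-3p alone as reference, where miR-532-3p was at 0.97 and the rat assay of miR-532-5p at 0.94.

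PBS muscle did not follow that course. In PBS + SHAM, 1 of 6 measured cluster assays, mmu-miR-501-5p at a log2 ratio of 1.02, was at least 2-fold higher at D4, with 2.61% of 153 assays, while the rat assay of the same miRNA gave 0.35. In PBS + SCI it was 0 of 5, with 0% of 157 assays, and the log2 ratios ran from -0.53 (miR-362-3p) to 0.37 (rno-miR-532-5p). miR-362-3p was below 0 in both PBS comparisons, at -0.39 and -0.53, and above 0 in both CDTX comparisons, at 1.47 and 0.83.

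Whether SCI changed the cluster was tested over the 4 pairs of pools that differ only in surgery (PBS D2, PBS D4, CDTX D2 and CDTX D4), with limma on all 123 assays measured in all 8 pools, the pair as a block and 3 residual degrees of freedom. Of the cluster only the 4 assays named above could enter, and the pools that singled out the cluster were among those fitted. If the CDTX and PBS pools of a surgery and day came from the same mice, the pairs were not independent. The fit could not account for this. No assay passed an adjusted p of 0.05 (0% of 123), 16 had an unadjusted p under 0.05, each of them lower in SCI, and the smallest adjusted p in limma was 0.25. The mean SCI minus SHAM was below 0 for 92 of the 123 assays, with a median log2 difference of -0.10 over all. For miR-362-3p it was -0.25 ± 0.16 (SE, limma, adjusted p = 0.60), with 4 of 4 pairs below 0, as in 25 of the 123 assays, and with 2 of 4 under the deposited normalization or miR-125b-5p alone and 3 of 4 with the global mean Cp or miR-24-3p alone. The others were at -0.28 ± 0.19 for hsa-miR-532-5p, -0.28 ± 0.18 for rno-miR-532-5p and -0.10 ± 0.16 for miR-532-3p, with limma adjusted p of 0.60, 0.60 and 0.88. Leaving out the CDTX D4 pair moved miR-362-3p to -0.09, rno-miR-532-5p to -0.07 and miR-532-3p to 0.08, and leaving out the CDTX D2 pair moved hsa-miR-532-5p to -0.10, while without the PBS D2 pair hsa-miR-532-5p was at -0.46 and miR-532-3p at -0.16. The 95% intervals of the full fit lay within -0.72 to 0.28. This leaves an average log2 fall of up to that size within the error. Beside the 3 residual degrees of freedom, the limma intervals and p-values draw on 4.84 prior degrees of freedom from the spread of all 123 assays. The fit averaged the SCI effect over injection and day and counted its differences between pairs as error. Its intervals therefore do not bound the CDTX D4 pair alone, where rno-miR-532-5p was at -0.91.

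**Figure D4:**
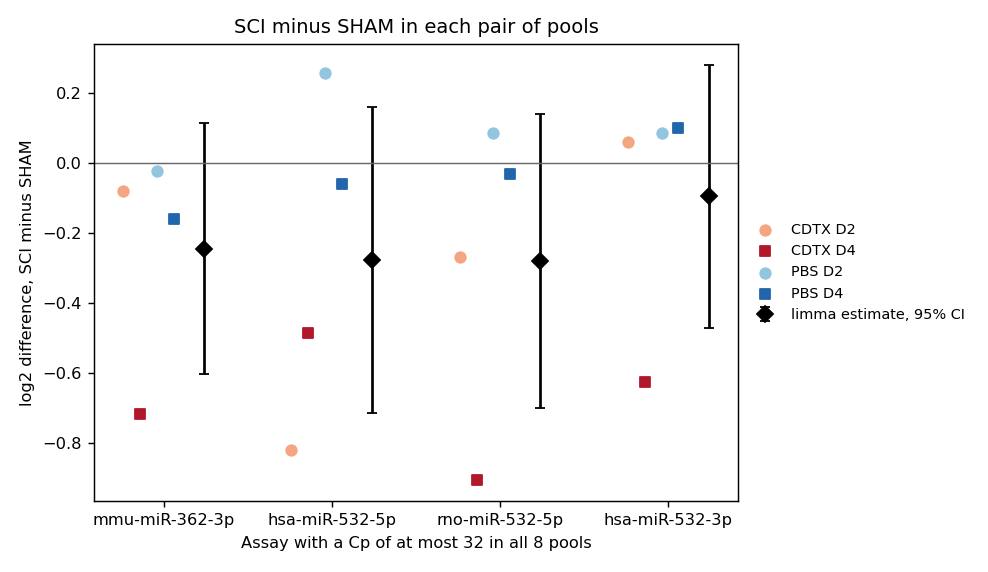
Log2 difference of SCI minus SHAM for the 4 cluster assays measured in all 8 pools, in each of the 4 pairs of pools (colored points) and as the limma estimate with its 95% confidence interval (black). The CDTX D4 pair lies at -0.49 or lower in each assay, and all 4 intervals include 0.

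The pairs themselves differed. In CDTX D4, all 9 cluster assays measured in both pools were lower in SCI, with log2 ratios from -0.42 (miR-501-3p) to -1.16 (rno-miR-501-5p), and each lay below the median of all 168 assays, which was itself at -0.31 with 78.0% of the assays below 0. At least 2-fold lower were 2 of the 9, miR-362-5p at -1.03 and rno-miR-501-5p at -1.16, with 10.7% of all assays, and with the global mean Cp as reference neither remained so, at -0.72 and -0.85. With that reference the median of all assays was 0.00 and that of the cluster -0.41, and 9 of 9 stayed below 0. The CDTX + SHAM D4 pool, in which the cluster was highest, was one of those that singled it out, and with 1 pool on each side this difference was not tested.

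In the other pairs the median of the cluster was nearer to that of all assays, at 0.09 against 0.04 in PBS D2 and -0.06 against -0.22 in PBS D4. Single assays stood near the low end of the panel in some pairs and near the high end in others. In CDTX D2, 0 of 4 assays were at least 2-fold lower in SCI (0% of 146 assays) and the log2 ratios ran from -0.82 (hsa-miR-532-5p, rank 142 of 146 from the highest) to 0.06 (miR-532-3p), with -0.27 by the rat assay of miR-532-5p. In PBS D2, 0 of 6 were at least 2-fold lower (0.606% of 165 assays) with log2 ratios from -0.16 to 0.45. The extremes were the rat and the mouse assay of miR-501-5p (ranks 128 and 15 of 165 from the highest). In PBS D4, 0 of 5 were at least 2-fold lower (0.676% of 148 assays), and 4 of the 5 lay above the median of all assays, -0.22. There miR-532-3p was highest at 0.10 (rank 11 of 148 from the highest) and mmu-miR-501-5p lowest at -0.86 (rank 145 of 148).

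The miRNAs outside the cluster whose profile over the 8 pools was most like the mean of its 4 assays were miR-199a-5p (Pearson's r = 0.993), miR-34a-5p (0.975), miR-106b-5p (0.972), miR-214-3p (0.970) and miR-342-3p (0.967), among 119 assays measured in all pools. The 8 points share the references and fall mainly into CDTX D4 and the rest, so the coefficients are a description. With Spearman's rho in place of Pearson's r, only 1 of these 5 stayed among the first 5. In SHAM D4 their log2 ratios of CDTX over PBS ranged from 1.36 (miR-106b-5p) to 3.34 (miR-214-3p), around the 2.46 to 3.01 of the 4 cluster assays.

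Markers of several cell types moved between the same pools, and their part in the cluster's values was not tested. Fewer cells of a type and less RNA per cell cannot be told apart in these whole-muscle pools. Of the striated muscle markers, 3 of 3 measured (of 4 on the panels) were at least 2-fold lower with CDTX in all 4 comparisons, and their summed relative expression, on the linear scale, was 64.5 to 100.5 in the PBS pools, 15.2 to 23.9 in CDTX D2 and 19.2 to 19.4 in CDTX D4. The leukocyte markers, led by miR-223-3p, summed to 0.413 to 0.448 in PBS, 2.25 to 3.23 in CDTX D2 and 1.83 to 1.88 in CDTX D4. This sum was highest at D2. The median log2 ratio of CDTX over PBS of the measured leukocyte markers was 3.11 in SHAM D2 and 3.27 in SHAM D4. In SCI it was 1.65 at D2 and 1.38 at D4. Of those measured, 4 of 6 in SHAM D2, 3 of 5 in SCI D2, 2 of 3 in SHAM D4 and 3 of 5 in SCI D4 were at least 2-fold higher with CDTX, and 1 was at least 2-fold lower in each D4 comparison.

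The Dnm3os miRNAs of mesenchymal cells, led by miR-199a-3p, had the same order of days as the cluster. They summed to 0.278 to 0.400 in PBS, 0.629 to 0.808 in CDTX D2 and 0.976 to 2.05 in CDTX D4, with 4 of 4 at least 2-fold higher with CDTX in both D4 comparisons (medians 2.78 and 2.05) and 3 of 4 in both D2 comparisons. In CDTX D4 their median SCI over SHAM was -0.94, beside -0.72 for the cluster. The endothelial markers, led by miR-126-3p, summed to 1.25 to 1.59 in PBS, 1.19 to 1.48 in CDTX D2 and 0.528 to 0.567 in CDTX D4, and the erythroid markers to 0.0112 to 0.0313, 0.0183 to 0.0256 and 0.0113 to 0.0195. None of the markers on the panels was at 36 in all pools, while miR-208b-3p of striated muscle and miR-155-5p of leukocytes were at 36 in some.

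A pair of other miRNA groups was set beside the cluster. Of the miR-322 and miR-503 cluster, also X-linked and induced when myoblasts leave the cell cycle in mouse cultures, 1 of 10 assays on the panels was measured in both pools of SHAM D4 and it had a log2 ratio of CDTX over PBS of 0.73, while in SCI D4 it was 2 of 10 with a median of 0.45. Its summed relative expression was 0.235 to 0.266 in PBS, 0.233 to 0.279 in CDTX D2 and 0.493 to 0.623 in CDTX D4, its median D4 over D2 in CDTX + SHAM was 2.06 over 2 assays and its median SCI over SHAM in CDTX D4 was -0.65 over 5 assays. The miRNAs of the miR-17 to miR-92 cluster and its paralogs, which accompany cell proliferation, were at least 2-fold higher with CDTX for 7 of 9 measured in SHAM D2, 6 of 8 in SCI D2, 5 of 8 in SHAM D4 and 5 of 8 in SCI D4. Their medians of 1.54, 1.18, 1.34 and 1.18 were alike at both days, whereas those of the cluster went from 0.82 and 0.83 at D2 to 2.52 and 2.02 at D4. The small nuclear RNAs on the panels, which are no miRNAs, were also higher with CDTX at D4, with U6 at least 6.63-fold higher in SHAM D4, where its PBS pool was beyond 32, and at a log2 ratio of 2.23 in SCI D4, and RNU1A1 at 1.64 and 1.25, and their part in the result was not tested.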

How the data were processed

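Total RNA of gastrocnemius pools (8 pools of 3 muscles, 1 pool per condition) was reverse transcribed and run by the authors on the miRCURY LNA miRNome Mouse&Rat panels I and II. The deposited Cp score of each assay is the second derivative maximum given by the LightCycler software, with 36 at the end of the range. The deposited relative expression ratio is the power of 2 of the Cp difference from the averaged Cp of miR-125b-5p, miR-16-5p, miR-24-3p and miR-23a-3p for 100% of values of at least 0.001 (tolerance 0.01, log2). Another deposited table holds the authors' own fold changes and was not used.

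Here the Cp was referred to the mean of the 3 reference miRNAs that the methods name (miR-125b-5p, miR-24-3p and miR-23b-3p), on the log2 scale. Ratios of 2 pools needed a Cp of at most 32 in both, 2-fold was the size counted, and no test was made with 1 pool per side. SCI over SHAM was fitted with limma 3.58.1 (R 4.3.3, pair as block, Benjamini-Hochberg over 123 assays). The code was checked on simulated data whose effects were larger than those found here and alike in all pairs. That check does not show how well smaller or unequal effects would be found. With pools of unlabelled mice as units, p-values rest on the spread between these pairs, moderated in limma by that of all fitted assays. How mice vary is not measured by them. The 3 small nuclear RNA assays were left out of all counts. For lists, 1 assay per miRNA was taken, the mouse-named one or else that with the lower mean Cp. Named were all cluster assays, the references, the 5 miRNAs of highest Pearson's r and the most abundant member of each list. Members and lists were chosen with earlier results of these data known. Alternatives were 5 other normalizations, Cp limits of 30, 33 and 35 or none, thresholds of 1.5-fold and 3-fold, an additive model, each pair left out, the second assay and Spearman's rho. Sequences came from the panels' target list and RefSeq (GRCm38.p6). Computations used Python 3.11.15 with pandas 2.3.3.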

Additional observations from a re-analysis of the deposited data

Results flagged for a closer look

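Small nuclear RNAs, which lie outside the miRNA comparisons and are often used as references, gave a signal in CDTX muscle at D4 above that of the PBS control pools. U6 snRNA had a log2 ratio of CDTX over PBS of 2.23 in SCI D4 and of 0.53 in SHAM D2. In SHAM D4, where its PBS pool had a Cp of 32.27, the log2 ratio as recorded was 3.00 and U6 was at least 6.63-fold higher with that pool set at 32. In SCI D2 its CDTX pool was beyond 32 and no ratio is given. RNU1A1 had 1.64 in SHAM D4 and 1.25 in SCI D4, against 0.08 and -0.01 at D2. RNU5G was at 1.46 and 0.84 at D4.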

How the results depend on the processing

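No paired analysis was possible because each condition had 1 pool, other than the block of pairs already in the limma fit. The number of cluster assays at least 2-fold higher with CDTX changed by more than 1.5 times under these settings. In SHAM D2 (2 of 5) it was 5 of 5 with miR-23b-3p alone and 5 of 5 at 1.5-fold. With more assays admitted, it was 5 of 10 at a Cp of at most 35 and 6 of 11 with no limit except the end of the range. In SCI D2 (1 of 4) it was 4 of 4 with miR-23b-3p alone, 4 of 4 at 1.5-fold and 0 of 4 at 3-fold. At a Cp of at most 35 it was 3 of 9 there, and 4 of 10 with no limit except the end of the range. In SCI D4 (5 of 5) it was 9 of 9 at a Cp of at most 35 and 10 of 10 with no limit. In SHAM D4 (6 of 6) it was 10 of 10 with no limit, where fewer assays are filtered out. The shares of all assays at other Cp limits or fold thresholds are not given. At a Cp of at most 30 no cluster assay had both pools measured, so no value could be given. Calls in limma stayed at 0 under every alternative, from 0 to 0 when each pair was left out. With the global mean Cp, the mean SCI differences were -0.11 for miR-362-3p, -0.14 for both assays of miR-532-5p and 0.04 for miR-532-3p. Of the 5 miRNAs most like the cluster, 1 was shared with the first 5 by Spearman's rho and 4 with the global mean Cp. Of 65 single ratios under 357 alternative values, 45 values moved by more than the 0.34 of the assay error, 25 of them with a single reference miRNA and 20 with the second assay, by at most 0.67. No ratio of at least 2-fold changed sign, while 12 smaller ones, of at most 0.45 in size, did so under at least 1 alternative. Of 26 ratios of at least 2-fold, 20 stayed so under every alternative. A comparison with the deposited fold changes, though foreseen, was not run. Cp values beyond 32 limit miR-188-5p, miR-362-5p and miR-501-3p to bounds.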
